A study of Mus musculus with 12 samples.

Results

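The 38 genes described here encode the sensors, chaperones, folding enzymes, degradation factors and transport components of the endoplasmic reticulum (ER), the compartment in which secreted and membrane proteins are made. They were chosen by symbol as genes of the ER unfolded protein response and of ER protein folding, and all 38 are among the 23336 symbols of the count table. Of them, 37 passed the filter on low counts and were tested together with 11561 genes in all, and Derl3 did not pass. When unfolded proteins build up in the ER, the chaperone BiP leaves the sensor proteins IRE1, ATF6 and PERK in the ER membrane, and these switch on a gene programme called the unfolded protein response. IRE1 splices the Xbp1 transcript so that it encodes an active transcription factor, ATF6 is cut in the Golgi to release another, and PERK slows translation while favouring that of ATF4. The programme is known for raising chaperones, disulfide enzymes and the genes of ER-associated degradation (ERAD), the route by which misfolded proteins are returned to the cytosol.

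RNA was profiled in B16, an established mouse melanoma line. Cells had received Cas9 by transient transfection, with either Adar sgRNA 1 or the non-targeting sgRNA 5, and were then subcloned. Adar encodes the enzyme that changes adenosine to inosine in double-stranded RNA. The groups are Adar-null cells with interferon-beta (IFNb, 1000 U per mL), Adar-null cells with vehicle, control cells with IFNb and control cells with vehicle, each with 3 libraries and 36 h of treatment. The vehicle was phosphate-buffered saline with albumin, and all groups passed through Cas9 transfection and subcloning. Each genotype is 1 guide and its subcloned cells, so genotype and subclone cannot be told apart. Whether a group's 3 libraries are separate cultures is not stated by the labels, so the p-values reflect how far these libraries scatter, possibly for technical reasons alone. An interferon-gamma arm named in the design text is not analysed here.

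Library totals ranged from 5375649 to 7153480 counts. Levels are given as CPM, counts rescaled to a common depth with TMM factors, and their errors are SD over 3 libraries. Adar itself had 408 ± 21.2 CPM in Adar-null cells with IFNb against 59.5 ± 5.26 CPM with vehicle, and 384 ± 7.47 CPM in control cells with IFNb against 72.2 ± 2.05 CPM with vehicle (n = 3 each), so the transcript was not lost, and counts per gene do not show whether its reading frame was broken. All 7 melanoma markers were detected, at a summed 10400 to 11100 CPM with IFNb and 15300 to 15400 CPM with vehicle in Adar-null cells, against 13400 to 13700 CPM with IFNb and 15600 to 16500 CPM with vehicle in control cells. The leukocyte marker Cd3e and the epithelial markers Epcam, Krt8 and Krt18 were at 0 in every library. The leukocyte list had a summed level of 2.25 to 3.22 CPM with IFNb and 1.25 to 1.54 CPM with vehicle in Adar-null cells, against 2.31 to 3.87 CPM with IFNb and 1.26 to 1.81 CPM with vehicle in control cells. The fibroblast list (4 of 4) summed to 18.8 to 24.5 CPM with IFNb and 16.6 to 21.9 CPM with vehicle in Adar-null cells, against 9.44 to 12.8 CPM with IFNb and 10.8 to 18.6 CPM with vehicle in control cells. The endothelial list (3 of 3) summed to 0.633 to 1.70 CPM in the Adar-null group with IFNb and to at most 0.495 CPM in any other library, and the epithelial list, through Cdh1 alone, to 0.902 to 1.70 CPM with IFNb and 3.43 to 4.28 CPM with vehicle in Adar-null cells, against 1.25 to 2.63 CPM with IFNb and 2.99 to 3.46 CPM with vehicle in control cells. The summed level of 6 mitosis genes lay between 131 and 162 CPM in the Adar-null group with IFNb, 2020 to 2090 CPM in Adar-null cells with vehicle, 1280 to 1360 CPM in control cells with IFNb and 1820 to 1870 CPM in control cells with vehicle. That of 6 interferon-stimulated genes lay between 7620 and 7820 CPM in the Adar-null group with IFNb, 59.7 to 68.5 CPM in Adar-null cells with vehicle, 3060 to 3100 CPM in control cells with IFNb and 59.4 to 60.9 CPM in control cells with vehicle. The ribosomal RNA precursor Rn45s took 25.8% to 28.5% of counts in Adar-null cells with IFNb, 21.1% to 22.9% in Adar-null cells with vehicle, 24.9% to 25.3% in control cells with IFNb and 21.5% to 22.4% in control cells with vehicle. These measures moved with the groups, and their part in the results below was not tested. In such bulk samples fewer cells in a state and less RNA per cell cannot be told apart.

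The ER genes did not move as a block. In Adar-null cells, IFNb raised 18 and lowered 9 of the 37 tested, at a Benjamini-Hochberg adjusted p under 0.05 in the edgeR quasi-likelihood test, where 72.3% of all genes were called, 36.6% higher and 35.7% lower. In control cells it raised 18 and lowered 11, where 53% of all genes were called, 26.5% in each direction. Of the genes called, 10 rose in both genotypes, 6 rose in Adar-null cells and fell in control cells (Atf6, Derl2, Ern1, Herpud1, Sel1l and Wfs1), and 3 fell in Adar-null cells and rose in control cells (Edem3, Pdia6 and Sec24d). The 10 are 27% of the ER genes, against 14.9% of all genes tested with that pair of calls, the 6 are 16.2% against 5.91%, and the 3 are 8.11% against 6.44%. The difference between the responses (the interaction, Adar-null minus control) was called for 30 of 37, 17 higher and 13 lower, where 59.3% of all genes were called, 28.6% higher and 30.7% lower. Sizes given below with rose, fell or interaction are log2 fold changes ± SE unless another unit is named. Of the 17, 8 differed by at least 2-fold and none of the 13 did, while among all genes 7.86% were that much higher and 11.7% that much lower. The median response was 0.12 on the log2 scale in Adar-null cells (0.01 over all genes) and 0.09 in control cells (0 over all genes). With library size alone in place of TMM, 39.4% of the genes called in control cells were higher, against 50% with TMM, and the ER genes called there became 14 higher and 15 lower. In Adar-null cells the share was 43.6%, against 50.6% with TMM, and the ER genes called became 16 higher and 10 lower. The median over all genes was then -0.078 in Adar-null cells and -0.08 in control cells, so its place near 0 depends on the scaling. Together the 38 genes made up 0.787% to 0.816% of a library's counts in Adar-null cells with IFNb, 0.665% to 0.682% in Adar-null cells with vehicle, 0.695% to 0.700% in control cells with IFNb and 0.715% to 0.736% in control cells with vehicle. These shares are of totals that include Rn45s and do not describe all members alike. Hspa5 alone had 27741 counts in the Adar-null group with IFNb against 6141 with vehicle, and 13039 against 5827 in control cells.

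**Figure D1:**
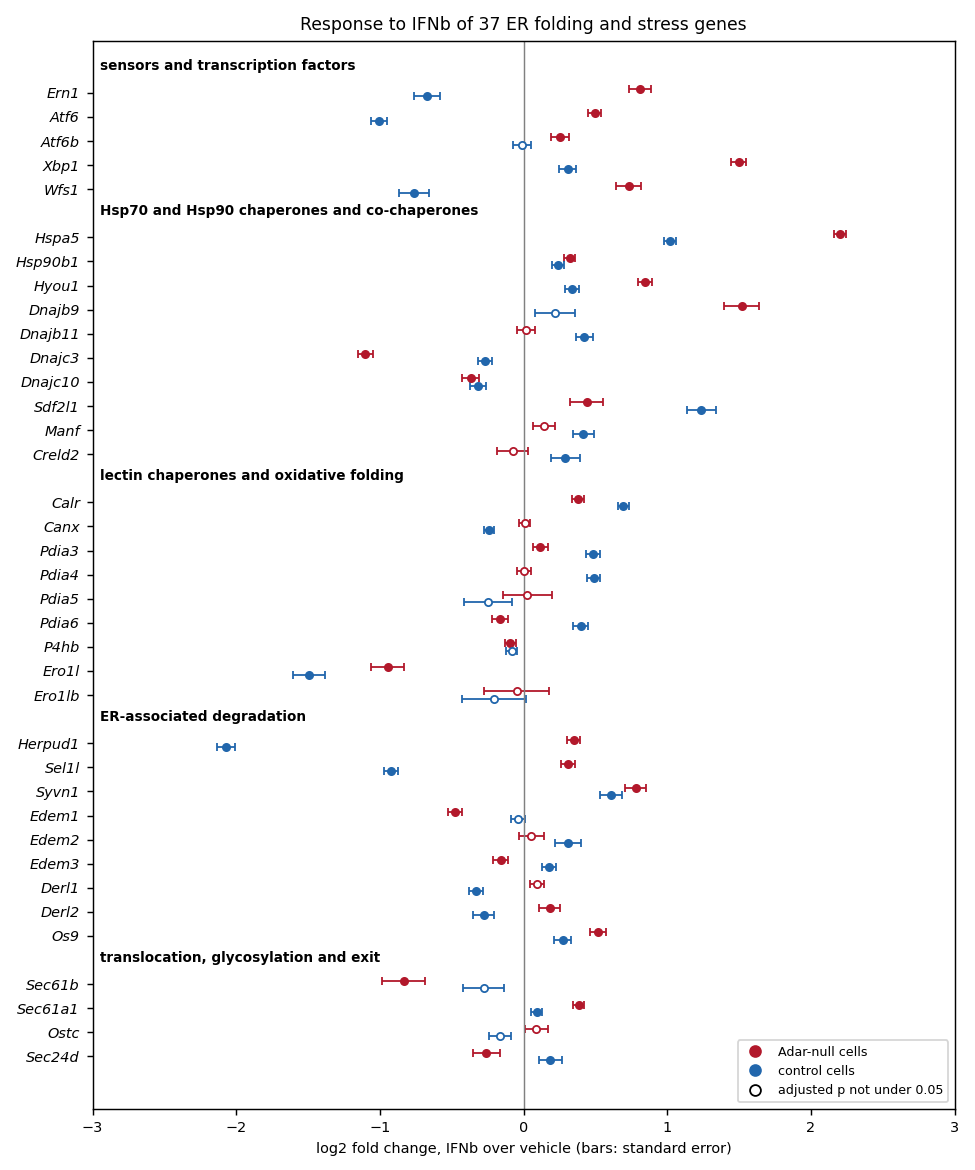
Log2 fold change of IFNb over vehicle for the 37 ER genes tested, grouped by role, in Adar-null cells (red) and control cells (blue). Bars are standard errors, and open points have an adjusted p not under 0.05. The 5 genes grouped as sensors and transcription factors, and Herpud1, Sel1l and Derl2, have their red points to the right of 0. Apart from Xbp1 and Atf6b their blue points are filled and lie to the left of 0.

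The promoters of these genes are known for the ER stress element, a CCAAT box and a CCACG separated by 9 bases, which ATF6 and XBP1 bind together with the factor NF-Y. RefSeq promoters on GRCm38.p6, from 250 bases before to 50 bases after the start, were matched for 32 of the 38 genes (not for Atf6, Hyou1, Manf, Derl1, Sec61a1 and Ostc). On either strand, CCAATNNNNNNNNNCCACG occurred in 10 of the 32 (31.2%), against 0.137% of 27025 genes with a promoter in the same table. The shorter ER stress element II, ATTGG and CCACG with any 1 base between them, occurred in Dnajb11 and Herpud1, which is 6.25% against 0.0444%. Either element was present in 12 (37.5% against 0.181%). The background includes the 32, which were chosen as genes of the response and of ER folding that this element is known for. Their larger share follows in part from that choice and is not a test. The core of the UPR element, TGACGTG, occurred in Hspa5 and Sec24d (6.25% against 2.22%), and the core of the interferon-stimulated response element, GAAANNGAAA, occurred in none of the 32, against 3.99% of all. Among the 8309 tested genes with a promoter, the shares were 0.205% for the ER stress element and 0.0722% for the second kind. They were 3.44% for the UPR element core and 3.66% for the interferon-stimulated response element core. A match describes letters in this window, and its absence says nothing about a factor. The 250 bases before the start follow for 5 of the 12, because these genes carry an element and yet differed in their response to IFNb. Capitals mark the elements found.
Hspa5, chr2:34771840-34772089, plus strand: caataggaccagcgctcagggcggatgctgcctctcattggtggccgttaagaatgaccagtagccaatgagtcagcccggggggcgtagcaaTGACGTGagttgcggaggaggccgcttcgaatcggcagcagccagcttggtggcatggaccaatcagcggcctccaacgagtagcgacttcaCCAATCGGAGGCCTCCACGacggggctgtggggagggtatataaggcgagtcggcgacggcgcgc
Hsp90b1, chr10:86705445-86705694, minus strand: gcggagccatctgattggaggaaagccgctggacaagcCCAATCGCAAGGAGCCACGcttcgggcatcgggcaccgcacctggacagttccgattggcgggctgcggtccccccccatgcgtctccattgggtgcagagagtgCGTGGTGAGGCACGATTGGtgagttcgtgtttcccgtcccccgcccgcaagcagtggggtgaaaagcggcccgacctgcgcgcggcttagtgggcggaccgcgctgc
Herpud1, chr8:94386179-94386428, plus strand: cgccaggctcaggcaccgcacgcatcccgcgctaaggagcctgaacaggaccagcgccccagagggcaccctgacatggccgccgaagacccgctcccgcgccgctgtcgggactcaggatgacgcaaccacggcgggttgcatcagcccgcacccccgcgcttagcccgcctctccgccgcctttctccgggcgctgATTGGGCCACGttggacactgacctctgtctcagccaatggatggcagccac
Dnajc3, chr14:118937682-118937931, plus strand: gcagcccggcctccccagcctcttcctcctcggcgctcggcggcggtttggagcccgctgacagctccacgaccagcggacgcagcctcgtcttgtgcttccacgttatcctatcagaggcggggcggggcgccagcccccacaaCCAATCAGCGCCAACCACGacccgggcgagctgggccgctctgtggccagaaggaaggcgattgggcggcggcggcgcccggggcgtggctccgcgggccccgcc
Pdia6, chr12:17266339-17266588, plus strand: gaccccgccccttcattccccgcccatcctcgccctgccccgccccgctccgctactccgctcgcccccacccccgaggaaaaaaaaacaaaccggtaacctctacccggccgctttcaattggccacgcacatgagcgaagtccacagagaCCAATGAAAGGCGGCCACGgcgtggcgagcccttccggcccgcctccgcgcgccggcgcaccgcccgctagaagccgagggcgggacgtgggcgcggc
In Hspa5 the capitals begin at base -157 (UPR element core) and -65 (ER stress element), counted from the start. Hsp90b1 holds the ER stress element at -212 and, on the opposite strand, at -107. It lies at -105 in Dnajc3 and at -98 in Pdia6, and the element of Herpud1, at -52, is of the second kind. As given below, Hspa5 and Hsp90b1 rose with IFNb in both genotypes, Dnajc3 fell in both, and Herpud1 and Pdia6 moved in opposite directions in the 2 genotypes. The other 7 genes with an element are Calr, Canx, Creld2, Ero1lb, Syvn1, Derl3 and Dnajb11.

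All 5 genes grouped as sensors and transcription factors rose with IFNb in Adar-null cells, whereas 1 rose in control cells (Xbp1), 3 fell (Ern1, Atf6 and Wfs1) and Atf6b was not called. The group includes Wfs1, which is neither a sensor nor a transcription factor. It leaves out the gene of the sensor PERK, Eif2ak3, which was called in no comparison and is given below. Of all genes, 36.6% rose in Adar-null cells, and 26.5% rose and 26.5% fell in control cells. The interaction was called higher for all 5, against 28.6% of all genes. Ern1 encodes IRE1. It had 72.0, 75.8 and 69.8 CPM in Adar-null cells with IFNb against 41.1, 39.1 and 44.8 CPM with vehicle. Control libraries had 25.1, 28.5 and 27.6 CPM with IFNb against 39.5, 43.2 and 47.1 CPM with vehicle. The 3 Adar-null libraries with IFNb were the highest of the 12 and the 3 control libraries with IFNb the lowest, so IFNb moved Ern1 up by 0.81 ± 0.08 (log2 fold change ± SE) in Adar-null cells and down in control cells (-0.67 ± 0.09), an interaction of 1.48 ± 0.12 (adjusted p = 6.92e-22). Xbp1, whose spliced transcript encodes the factor made by IRE1, had 215, 212 and 232 CPM in Adar-null cells with IFNb against 77.4, 79.7 and 76.1 CPM with vehicle. It had 90.4, 90.1 and 91.9 CPM in control cells with IFNb against 74.7, 72.7 and 73.1 CPM with vehicle. IFNb raised it in both genotypes without overlap, by 1.5 ± 0.05 in Adar-null cells and 0.30 ± 0.06 in control cells (interaction 1.19 ± 0.08), and counts per gene do not tell spliced from unspliced Xbp1.

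Atf6, the ER-bound factor that is cut in the Golgi, had 248, 246 and 262 CPM in Adar-null cells with IFNb against 178, 175 and 185 CPM with vehicle. Its values in control cells were 103, 101 and 98.1 CPM with IFNb against 189, 217 and 199 CPM with vehicle. Neither pair of groups overlapped, with a log2 fold change of 0.49 ± 0.05 in Adar-null cells and -1.01 ± 0.05 in control cells, and an interaction of 1.5 ± 0.07 (adjusted p = 2.46e-39). Wfs1 encodes wolframin, an ER membrane protein that binds ATF6 and favours its degradation. Its level was 54.9, 57.9 and 59.2 CPM in Adar-null cells with IFNb against 31.9, 38 and 33.3 CPM with vehicle. In control cells it was 19.2, 19.2 and 21.7 CPM with IFNb against 32.7, 31.3 and 38.1 CPM with vehicle. Wfs1 was highest in Adar-null libraries given IFNb and lowest in control libraries given IFNb, with log2 fold changes of 0.73 ± 0.09 in Adar-null cells and -0.76 ± 0.10 in control cells (interaction 1.49 ± 0.14). Atf6b, a relative of Atf6 with weaker activity, averaged 102 ± 8.03 CPM in Adar-null cells with IFNb against 85.5 ± 4.84 CPM with vehicle, a rise of 0.25 ± 0.06. In control cells it averaged 82.4 ± 0.514 CPM with IFNb against 83.1 ± 4.21 CPM with vehicle, and -0.01 ± 0.06 was not called. The Atf6b interaction of 0.27 ± 0.09 was no longer called without Adar-null IFNb library 3 (adjusted p = 0.0815).

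**Figure D2:**
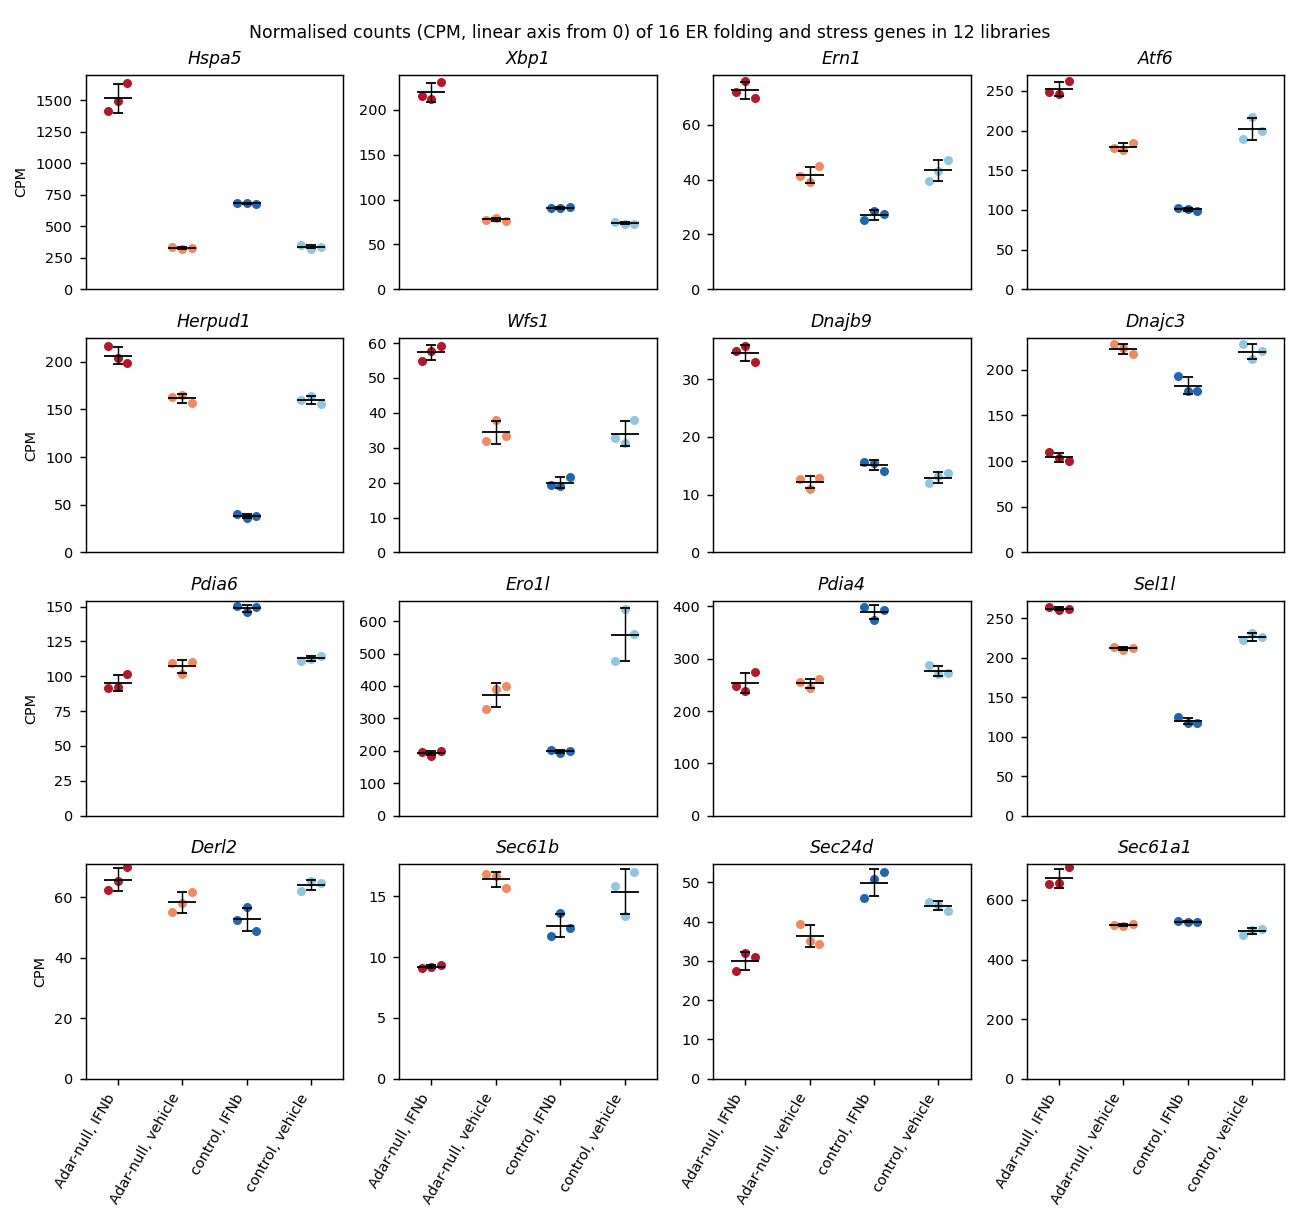
CPM of 16 ER genes in each of the 12 libraries, with the linear axis of each panel from 0; points are libraries, horizontal lines group means and error bars SD (n = 3). The panel of Herpud1 shows control libraries with IFNb at 35.9 to 40.2 CPM and all other libraries between 156 and 216 CPM, and that of Hspa5 shows Adar-null libraries with IFNb at 1414 to 1639 CPM.

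Among the 10 chaperones of the Hsp70 and Hsp90 systems and their partners, IFNb raised 5 and lowered 2 in Adar-null cells, and raised 7 and lowered 2 in control cells. Called were thus 70% in Adar-null cells, near the 72.3% of all genes, and 90% in control cells, against 53%. Hspa5 encodes BiP, the ER Hsp70 that holds the sensors inactive and is the usual marker of the response. It had 1414, 1491 and 1639 CPM in Adar-null cells with IFNb against 335, 321 and 331 CPM with vehicle. In control cells it had 684, 688 and 680.1 CPM with IFNb against 350.0, 323 and 339 CPM with vehicle. Every library with IFNb lay above every library with vehicle, and the Adar-null ones lay above the control ones, with log2 fold changes of 2.2 ± 0.04 in Adar-null cells and 1.02 ± 0.04 in control cells and an interaction of 1.18 ± 0.06 (adjusted p = 1.79e-37). Dnajb9 (ERdj4), a J-domain partner of BiP that is a target of XBP1, had 34.9, 35.8 and 33.1 CPM in Adar-null cells with IFNb against 12.7, 10.9 and 12.8 CPM with vehicle. It had 15.7, 15.4 and 14.1 CPM in control cells with IFNb against 11.9, 13.2 and 13.7 CPM with vehicle. Dnajb9 rose by 1.52 ± 0.12 in Adar-null cells, while the 0.22 ± 0.14 in control cells was not called although the libraries did not overlap (adjusted p = 0.179), and the interaction was 1.30 ± 0.18.

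Dnajc3 (p58IPK), a BiP partner that also inhibits PERK and the double-stranded RNA kinase PKR, moved the other way. It had 109.8, 103 and 100.0 CPM in Adar-null cells with IFNb against 228, 224 and 218 CPM with vehicle. Control libraries had 193, 177 and 177 CPM with IFNb against 228, 211 and 221 CPM with vehicle. Dnajc3 fell in both genotypes, by 1.10 ± 0.05 on the log2 scale in Adar-null cells and by 0.27 ± 0.05 in control cells, and the 3 Adar-null libraries with IFNb were the lowest of the 12 (interaction -0.83 ± 0.07, adjusted p = 3.25e-20). Hyou1, an Hsp70-like nucleotide exchange factor of BiP, rose by 0.84 ± 0.05 in Adar-null cells and by 0.34 ± 0.05 in control cells. Sdf2l1, which works with the BiP partner Dnajb11, rose in both but by less in Adar-null cells, where it averaged 23.3 ± 1.27 CPM with IFNb against 17 ± 1.04 CPM with vehicle (log2 fold change 0.44 ± 0.12). In control cells Sdf2l1 averaged 45.4 ± 1.25 CPM with IFNb against 19.2 ± 0.208 CPM with vehicle, a log2 fold change of 1.24 ± 0.10, and the interaction was -0.80 ± 0.15. Dnajb11 (ERdj3), a BiP partner, was not called in Adar-null cells (0.01 ± 0.06) and rose by 0.42 ± 0.06 in control cells. Manf, a secreted factor that binds BiP, was likewise not called in Adar-null cells (0.14 ± 0.08) and rose by 0.41 ± 0.07 in control cells. Creld2, a disulfide isomerase-like protein, was not called in Adar-null cells (-0.08 ± 0.11) and rose by 0.29 ± 0.10 in control cells. The rise of Creld2 in control cells was not called without control IFNb library 3 (adjusted p = 0.0551), without control vehicle library 2 (0.123) or with library size alone (0.0653). Hsp90b1 (GRP94), the ER Hsp90, rose in both, by 0.32 ± 0.04 in Adar-null cells and 0.24 ± 0.04 in control cells, and its interaction of 0.08 ± 0.06 was not called. Dnajc10 (ERdj5), a disulfide reductase of ERAD, fell by 0.37 ± 0.06 in Adar-null cells and 0.32 ± 0.06 in control cells, with an interaction of -0.05 ± 0.08 that was not called.

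Of the 9 lectin chaperones and oxidative folding enzymes, IFNb raised 2 and lowered 3 in Adar-null cells, and raised 4 and lowered 2 in control cells. That is 55.6% called in Adar-null cells, where 72.3% of all genes were, and 66.7% in control cells, where 53% were. Pdia6 (P5), a disulfide isomerase that also acts on IRE1, had 91.7, 92.2 and 102 CPM in Adar-null cells with IFNb against 109.6, 102 and 110.4 CPM with vehicle. Its values in control cells were 150.4, 146 and 149.7 CPM with IFNb against 111, 113 and 115 CPM with vehicle. Pdia6 fell by 0.17 ± 0.06 in Adar-null cells, where 1 library with IFNb overlapped those with vehicle, and rose by 0.40 ± 0.05 in control cells without overlap (interaction -0.56 ± 0.08). Pdia4 (ERp72), another disulfide isomerase, had 247, 238 and 274 CPM in Adar-null cells with IFNb against 255, 244 and 261 CPM with vehicle, and these overlapped. It had 399.5, 374 and 393 CPM in control cells with IFNb against 288, 270.1 and 273 CPM with vehicle, and these did not. The response of Pdia4 was 0.00 ± 0.05 and not called in Adar-null cells, and 0.49 ± 0.05 in control cells, with an interaction of -0.49 ± 0.07. Ero1l encodes ERO1-alpha, the oxidase that recharges the disulfide isomerases and a gene also known to be raised by hypoxia. It had 196, 185 and 199 CPM in Adar-null cells with IFNb against 329, 389.5 and 399 CPM with vehicle. In control cells it had 203, 193 and 199 CPM with IFNb against 476, 639 and 559.5 CPM with vehicle. Ero1l fell by 0.95 ± 0.11 in Adar-null cells and by 1.49 ± 0.11 in control cells, and the 2 groups with IFNb overlapped, so the interaction of 0.55 ± 0.16 (adjusted p = 0.017) stood beside unequal levels under vehicle.

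Calr (calreticulin), the soluble lectin chaperone, rose by 0.38 ± 0.04 in Adar-null cells and 0.69 ± 0.04 in control cells. Canx (calnexin), its membrane-bound relative, was not called in Adar-null cells (0.01 ± 0.04, but called at -0.09 with library size alone) and fell by 0.24 ± 0.04 in control cells. Pdia3 (ERp57), the disulfide isomerase of both lectins, rose by 0.12 ± 0.05 in Adar-null cells and 0.48 ± 0.05 in control cells. P4hb (PDI), the founding member of the isomerase family, fell by 0.09 ± 0.04 in Adar-null cells and was not called in control cells (-0.08 ± 0.04), although it was called there without control vehicle library 1 (adjusted p = 0.0109), with upper-quartile scaling (0.00929) or with library size alone (0.000312). In Adar-null cells the call of Pdia3 ended without IFNb library 1 or 3 or vehicle library 1 or 3 of these cells, or without control IFNb library 2 (adjusted p = 0.0573, 0.398, 0.112, 0.168 and 0.0748). It also ended with library size alone (0.02, adjusted p = 0.698), with no filter on low counts (0.0553), with DESeq2 (0.0852) and when only the 2 Adar-null groups were fitted (0.0785). That of P4hb ended without IFNb library 1 or 2 or vehicle library 1 or 2 of these cells (adjusted p = 0.106, 0.174, 0.0531 and 0.118), and with DESeq2 (0.0873). Pdia5 and Ero1lb (ERO1-beta), an isomerase and an oxidase, were low, at group means of 9.45 to 11.3 CPM and 5.41 to 6.27 CPM, and were called in no comparison.

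Of the 9 ERAD genes tested, IFNb raised 5 and lowered 2 in Adar-null cells, and raised 4 and lowered 4 in control cells. The share called was 77.8% in Adar-null cells, against 72.3% of all genes, and 88.9% in control cells, against 53%. Herpud1, an ER membrane protein that organises the retrotranslocation complex and a standard target of the response, had 216, 204 and 198 CPM in Adar-null cells with IFNb against 163, 165 and 156 CPM with vehicle. Control libraries had 40.2, 35.9 and 38.3 CPM with IFNb against 160.3, 164 and 156 CPM with vehicle. The 3 control libraries with IFNb stood below all 9 others and the 3 Adar-null libraries with IFNb above them, so Herpud1 rose by 0.35 ± 0.05 in Adar-null cells and fell by 2.07 ± 0.06 in control cells, and its interaction of 2.42 ± 0.08 (adjusted p = 8.36e-56) was the largest of the 37. Sel1l, the scaffold of the ubiquitin ligase HRD1, had 265, 261 and 262 CPM in Adar-null cells with IFNb against 214, 209.8 and 212 CPM with vehicle. Its values in control cells were 124, 117 and 117 CPM with IFNb against 222, 232 and 226 CPM with vehicle. As for Herpud1, Adar-null libraries given IFNb were the highest and control libraries given IFNb the lowest, with log2 fold changes of 0.31 ± 0.05 in Adar-null cells and -0.92 ± 0.05 in control cells (interaction 1.23 ± 0.07). Derl2, a derlin of the same complex, had 62.3, 65.4 and 69.9 CPM in Adar-null cells with IFNb against 55.0, 58.3 and 61.7 CPM with vehicle. In control cells it had 52.3, 56.8 and 49.0 CPM with IFNb against 62.0, 65.3 and 64.7 CPM with vehicle. The groups did not overlap in either genotype, and Derl2 rose by 0.18 ± 0.07 in Adar-null cells and fell by 0.28 ± 0.07 in control cells (interaction 0.46 ± 0.10). The rise was not called without Adar-null IFNb library 3 or vehicle library 1 (adjusted p = 0.165 and 0.104), with library size alone (0.255) or with DESeq2 (0.0527).

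Syvn1 encodes HRD1 itself, and unlike its scaffold Sel1l it rose in both genotypes, by 0.78 ± 0.07 in Adar-null cells and 0.61 ± 0.08 in control cells, with an interaction of 0.17 ± 0.10 that was not called. Os9, a lectin that brings misfolded glycoproteins to HRD1, rose by 0.52 ± 0.06 in Adar-null cells and 0.27 ± 0.06 in control cells. Derl1, another derlin, was not called in Adar-null cells (0.09 ± 0.05) and fell by 0.33 ± 0.05 in control cells. The mannosidase-like EDEM genes, which trim the glycans of misfolded proteins, were lower or not called in Adar-null cells. Edem1 fell by 0.48 ± 0.05 there and was not called in control cells (-0.04 ± 0.05), except with library size alone (-0.11, adjusted p = 0.0378). Edem3 fell by 0.16 ± 0.05 in Adar-null cells and rose by 0.18 ± 0.05 in control cells, and the rise was not called with library size alone (adjusted p = 0.0906). Edem2 was not called in Adar-null cells (0.05 ± 0.09) and rose by 0.31 ± 0.09 in control cells. Derl3, the member not tested, had 5, 7 and 7 counts in Adar-null cells with IFNb, 5, 7 and 4 in Adar-null cells with vehicle, 1, 5 and 1 in control cells with IFNb and 7, 5 and 3 in control cells with vehicle, too few to compare.

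Of the 4 genes of translocation, glycosylation and exit, IFNb raised 1 and lowered 2 in Adar-null cells and raised 2 in control cells. These shares, 75% and 50%, were near those of all genes called (72.3% and 53%). Sec61a1, the pore of the translocon, had 653, 656 and 709 CPM in Adar-null cells with IFNb against 514, 514 and 519 CPM with vehicle. Control libraries had 530.3, 525 and 527 CPM with IFNb against 484, 499 and 503 CPM with vehicle. It rose by 0.38 ± 0.04 in Adar-null cells, the 3 highest libraries, and by 0.09 ± 0.04 in control cells (interaction 0.29 ± 0.06). Sec61b, a small subunit of the same pore, had 9.09, 9.17 and 9.33 CPM in Adar-null cells with IFNb against 16.8, 16.7 and 15.7 CPM with vehicle. It had 11.8, 13.6 and 12.4 CPM in control cells with IFNb against 15.8, 13.4 and 17 CPM with vehicle. Sec61b fell by 0.83 ± 0.15 in Adar-null cells, so the 2 subunits moved in opposite directions there, and the -0.28 ± 0.14 in control cells, where libraries overlapped, was not called (adjusted p = 0.0845) except without control vehicle library 2 (0.0359) or with library size alone (0.0252). Sec24d, a cargo adaptor of the COPII coat, had 27.5, 31.9 and 30.9 CPM in Adar-null cells with IFNb against 39.4, 35.1 and 34.2 CPM with vehicle. Its values in control cells were 46.1, 50.9 and 52.7 CPM with IFNb against 45.0, 44.2 and 42.8 CPM with vehicle. Sec24d fell by 0.26 ± 0.09 in Adar-null cells and rose by 0.19 ± 0.08 in control cells without overlap (interaction -0.45 ± 0.12), and the fall was not called without Adar-null vehicle library 1 (adjusted p = 0.0736). The rises of Sec61a1 and Sec24d in control cells were near the threshold (adjusted p = 0.045 and 0.0459). That of Sec61a1 ended without any 1 of Adar-null vehicle libraries 1 and 2, control IFNb libraries 1, 2 and 3 and control vehicle libraries 1 and 2 (adjusted p = 0.0502 to 0.172), and that of Sec24d without any 1 of control IFNb libraries 2 and 3 and control vehicle libraries 1, 2 and 3 (0.0594 to 0.184). Both also ended with upper-quartile scaling (0.172 for Sec61a1 and 0.0953 for Sec24d), with library size alone and with no filter on low counts, and that of Sec24d with DESeq2 (0.123). Ostc, a subunit of the oligosaccharyltransferase, was not called in Adar-null cells (0.09 ± 0.08) or in control cells (-0.16 ± 0.07), the second of which was called with upper-quartile scaling, library size alone or limma-voom (adjusted p = 0.0213, 0.00428 and 0.0492).

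Set against control cells under the same treatment, Adar-null cells showed fewer differences in these genes under vehicle than under IFNb. Of the 37, 18.9% were called under vehicle, against 6.51% of all genes, and 86.5% under IFNb, against 72.6%. Under vehicle 0 of 37 were higher and 7 lower in Adar-null cells, where 6.51% of all genes were called, 2.47% higher and 4.05% lower, and none of the 7 reached 2-fold, as 0.355% of all genes did in that direction. At an unadjusted p under 0.05, 0 were higher and 12 lower in edgeR. The share of all genes at that threshold was not computed, so the 12 cannot be set against it. DESeq2 and limma-voom, which called 322 and 754 of all genes in either direction at an adjusted p under 0.05, also called 0 higher. The 7 were Ero1l (-0.58 ± 0.11), Dnajc10 (-0.30 ± 0.06), Ostc (-0.29 ± 0.08), Sec24d (-0.28 ± 0.09), Pdia3 (-0.19 ± 0.05), Atf6 (-0.17 ± 0.05) and P4hb (-0.13 ± 0.04). With DESeq2 2 remained called, and Atf6, Pdia3, P4hb, Ostc and Sec24d were not (adjusted p = 0.0641 to 0.159). The call of Ero1l ended when only the 2 vehicle groups were fitted (adjusted p = 0.13). Leaving out control vehicle library 2 ended the calls of Atf6 (0.288), Pdia3 (0.0552), P4hb (0.223), Ostc (0.056) and Sec24d (0.106). Leaving out Adar-null vehicle library 1 ended those of Atf6 (0.0777), Pdia3 (0.0768) and P4hb (0.117), library 2 those of Atf6 (0.103), Ostc (0.0608) and Sec24d (0.135), and library 3 those of Pdia3 (0.0727), P4hb (0.0934) and Sec24d (0.109). Control vehicle library 1 decided Pdia3 (0.267) and Sec24d (0.0943) and library 3 decided P4hb (0.125), while without library 3 Canx was called (-0.10 ± 0.04 with all libraries, adjusted p = 0.043 without it). With limma-voom Canx (0.0358) and Hsp90b1 (0.0411) were called lower as well.

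Under IFNb 16 of the 37 were higher and 16 lower in Adar-null cells than in control cells, where 72.6% of all genes were called, 36.4% higher and 36.2% lower. Of the higher genes 8 reached 2-fold and of the lower genes 0 did, against 8.75% and 12.6% of all genes. The 8 were Herpud1 (2.44 ± 0.06), Wfs1 (1.52 ± 0.10), Ern1 (1.42 ± 0.09), Atf6 (1.33 ± 0.05), Xbp1 (1.27 ± 0.05), Dnajb9 (1.20 ± 0.12), Hspa5 (1.15 ± 0.04) and Sel1l (1.13 ± 0.05). They comprise 4 of the 5 genes grouped as sensors and transcription factors (Wfs1 among them), BiP with a J-domain partner, and 2 ERAD factors. The other 8 higher genes, from Canx at 0.15 ± 0.04 to Hyou1 at 0.52 ± 0.05, include the derlins Derl1 and Derl2 and the pore subunit Sec61a1. The lower genes are mostly folding enzymes and co-chaperones, with Sdf2l1 (-0.96 ± 0.10), Dnajc3 (-0.81 ± 0.05), Sec24d (-0.73 ± 0.09), Pdia6 (-0.64 ± 0.05) and Pdia4 (-0.62 ± 0.05) farthest from 0. By role, 5 of 5 genes of the group of sensors and transcription factors were higher. Of 10 chaperones and partners 3 were higher and 6 lower, and of 9 lectin and oxidative folding genes 1 was higher and 5 lower. Of 9 ERAD genes 6 were higher and 3 lower, and of 4 translocation and exit genes 1 was higher and 2 lower. The call of Edem2 (-0.24 ± 0.09) ended without control IFNb library 2 (adjusted p = 0.0834) and with DESeq2 (0.0527).

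**Figure D3:**
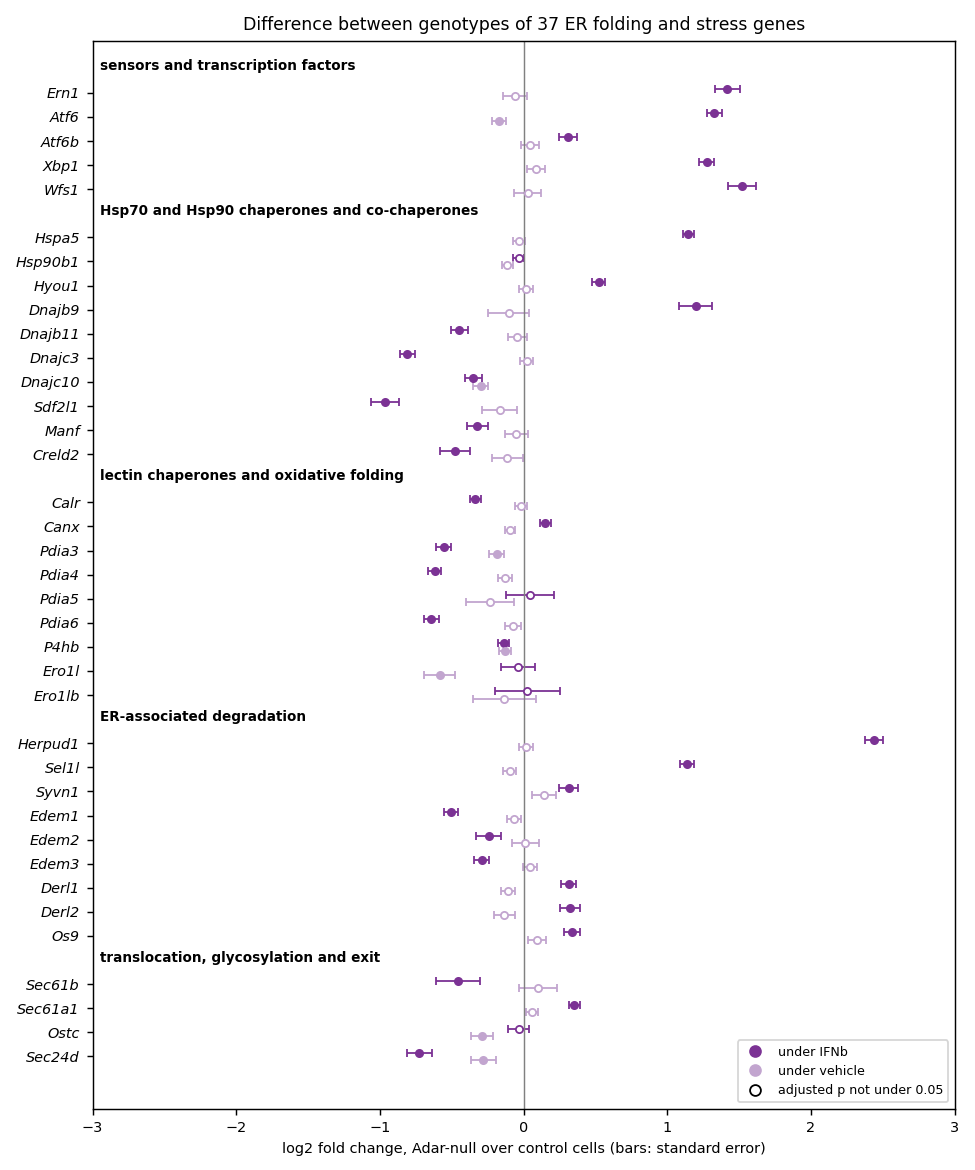
Log2 fold change of Adar-null over control cells for the 37 ER genes tested, under IFNb (dark) and under vehicle (light); bars are standard errors, and open points have an adjusted p not under 0.05. Under vehicle the points lie between -0.58 and 0.14, and under IFNb between -0.96 (Sdf2l1) and 2.44 (Herpud1).

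Levels per kb of exon, from merged GENCODE vM21 exons on GRCm38, allow the genes to be ranked against each other within a group. Hspa5 ranked 1 of 38 in Adar-null cells with IFNb at 358 CPM per kb, 6 in Adar-null cells with vehicle (77.8), 5 in control cells with IFNb (162) and 7 in control cells with vehicle (79.8). P4hb ranked 2 in Adar-null cells with IFNb at 229 CPM per kb, and 1 in Adar-null cells with vehicle (244), in control cells with IFNb (252) and in control cells with vehicle (267). Herpud1 ranked 8 in Adar-null cells with IFNb (88.3 CPM per kb), 9 in Adar-null cells with vehicle (69.3), 25 in control cells with IFNb (16.3) and 9 in control cells with vehicle (68.6). Ero1lb and Derl3 held the lowest 2 ranks in all 4 groups. The longest overlaps with exons on the opposite strand are those of Sec61a1 (549 bases), Hsp90b1 (415), Derl2 (231), Manf (166 and 146) and Syvn1 (91). Reads could be shared there, because no source used here gives the strand setting of the counting. Exons on the same strand overlap those of Hsp90b1 (133 and 84 bases), Manf (14) and Pdia4 (14).

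The remaining genes of the pathway were taken as 6 lists with no gene in common with the 38. Of all genes tested, 36.6% rose and 35.7% fell with IFNb in Adar-null cells, and 26.5% did each in control cells. The interaction was called higher for 28.6% of all genes and lower for 30.7%. Of 15 tested genes of PERK and the ATF4 arm, 11 rose and 1 fell with IFNb in Adar-null cells (median 0.55), and 1 rose and 13 fell in control cells (median -1.97), with 13 interactions called higher and 0 lower. At an unadjusted p under 0.05 the edgeR count of lower interactions in this list was also 0, and the share of all genes at that threshold was not computed. Eif2ak3, which encodes PERK, was called in no comparison and averaged 57.4 ± 0.548 CPM in Adar-null cells with IFNb, 62.1 ± 6.14 CPM in Adar-null cells with vehicle, 55.1 ± 1.26 CPM in control cells with IFNb and 60.2 ± 5.63 CPM in control cells with vehicle. Atf4, whose translation PERK favours, averaged 626 ± 22.4 CPM in Adar-null cells with IFNb against 618 ± 4.46 CPM with vehicle and was not called there. It averaged 149 ± 1.67 CPM in control cells with IFNb against 599 ± 7.19 CPM with vehicle, a fall of 2 ± 0.04 on the log2 scale. Ddit3, which encodes the death-associated factor CHOP, rose by 1.42 ± 0.05 in Adar-null cells and fell by 0.55 ± 0.06 in control cells. Trib3, a pseudokinase and CHOP target, and Ppp1r15a (GADD34), which restores translation, had the largest interactions of the list, 5.48 ± 0.10 and 4.62 ± 0.11. Whether PERK or another kinase, such as PKR, lay behind the changes in this list was not tested.

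Of 14 sensor regulators and ER stress factors, 4 rose and 7 fell in Adar-null cells, and 3 rose and 5 fell in control cells. Here Bbc3 (PUMA), a pro-apoptotic BH3 protein, and Traf2, an adaptor of IRE1, had the highest interactions (2.83 ± 0.18 and 1.41 ± 0.14), and Creb3l1, an ER-bound factor with low counts, and Map3k5 (ASK1), a kinase downstream of IRE1, the lowest (-2.04 ± 0.60 and -1.17 ± 0.16). Of 27 genes of the translocon, signal peptidase, TRAP complex and oligosaccharyltransferase, 5 rose and 18 fell in Adar-null cells, and 8 rose and 14 fell in control cells. Srp72, of the signal recognition particle, was the 1 gene there with a higher interaction (0.30 ± 0.07), and Tram2 and Ssr1, of the translocon and TRAP, had the lowest (-1.22 ± 0.23 and -0.84 ± 0.07). Of 37 other folding enzymes and lectin-cycle genes, 5 rose and 18 fell in Adar-null cells, and 9 rose and 12 fell in control cells. The highest interactions were those of Calr3, a calreticulin relative, and the oxidoreductase Tmx3 (1.41 ± 0.57 and 0.62 ± 0.09), and the lowest those of the peroxiredoxin Prdx4 and the prolyl isomerase Fkbp7 (-1.63 ± 0.18 and -1.43 ± 0.63). Calr3 and Fkbp7 had low counts, with group totals of 17 to 51 and 13 to 86. Fkbp7 already differed under vehicle, at a mean of 1.1 CPM in Adar-null cells and 2.6 CPM in control cells. Of 23 other ERAD genes, 13 rose and 3 fell in Adar-null cells, and 4 rose and 9 fell in control cells. Yod1, a deubiquitinase, and Herpud2, the relative of Herpud1, were highest in the interaction (1.02 ± 0.15 and 0.78 ± 0.11), and Rnf5, a ubiquitin ligase, and Jkamp lowest (-0.66 ± 0.18 and -0.34 ± 0.12). Of 27 genes of the COPII coat and ER exit, 10 rose and 7 fell in Adar-null cells, and 11 rose and 3 fell in control cells. Mcfd2, a cargo receptor subunit, and Gosr2, a Golgi SNARE, were highest (0.72 ± 0.11 and 0.60 ± 0.07), and the KDEL receptors Kdelr2 and Kdelr1, which return chaperones to the ER, lowest (-0.69 ± 0.07 and -0.56 ± 0.09). Interactions were called higher for 4 and lower for 7 of the 14 sensor regulators, and for 1 and 13 of the 27 translocon genes. The counts were 8 and 16 of the 37 folding genes, 15 and 2 of the 23 ERAD genes and 6 and 8 of the 27 COPII genes. Of all genes, 28.6% were called higher and 30.7% lower.

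**Figure D4:**
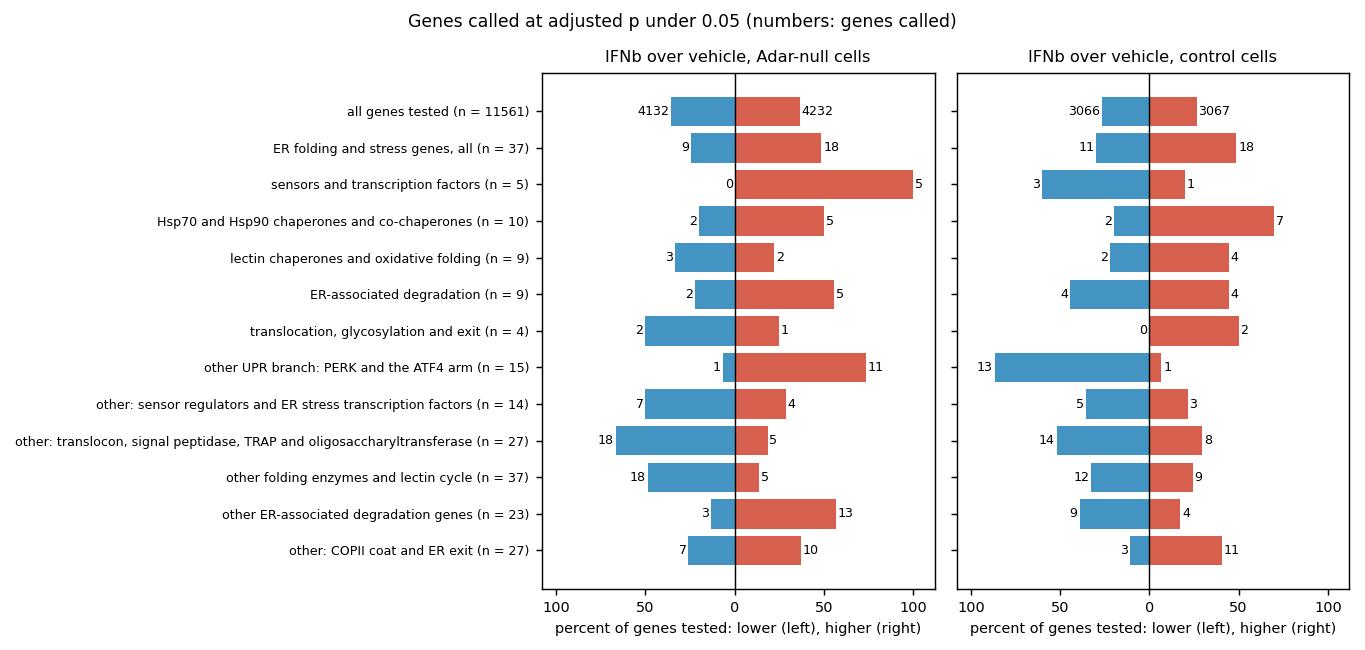
Percent of tested genes called higher (right, red) and lower (left, blue) with IFNb in Adar-null cells and in control cells, for all genes, the 38 ER genes by role, and the 6 other lists; numbers are genes called. In the PERK and ATF4 list, Adar-null cells have 11 genes higher and 1 lower, and control cells 1 higher and 13 lower.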

How the data were processed

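The 12 RNA libraries were ribosomal RNA-depleted, directional and read from both ends, per the labels' protocols. The deposited table holds the authors' raw counts per gene symbol, with no normalization. Per the submitters' processing notes, the build named is mm10 and the tools named, in no stated order, are HTSeq 0.6.1p1, Bowtie2 2.2.4, Trimmomatic 0.33, bcl2fastq 2.19.1 and DESeq2. Settings, counting strand and annotation were not given in the sources used here. All 12 count columns were matched to samples by title.

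From these counts, edgeR 4.0.16 in R 4.3.3 was run over all 12 libraries with 1 term per group (filterByExpr by group, TMM, robust glmQLFit, glmQLFTest), with Benjamini-Hochberg adjustment over 11561 genes in each of 5 comparisons and calls at an adjusted p under 0.05. CPM uses TMM library sizes, with SD over 3 libraries. Standard errors are Wald errors of the quasi-likelihood fit, with the Poisson counting error as a lower bound. A total of 3 counts in a group corresponds to 0.157 to 0.173 CPM. The script was tested on simulated counts. Replicate libraries differed by more than sampling noise (chi-square per degree of freedom 1.48 to 3.31), so none was counted as a duplicate. Alternatives were other scalings, no filter, no Rn45s, DESeq2 1.42.0, limma-voom (limma 3.58.1), a fit of only the groups compared, a test against a 1.5-fold change, a replicate block and leaving out each library.

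The ER genes, the role groups, the pathway lists and the tests were chosen with earlier results of these data known. Values of every library are given for Hspa5, Xbp1, Ern1, Atf6, Herpud1 and, per role, the 3 genes with the largest called interaction; the pathway lists are described by counts, PERK, Atf4, Ddit3 and, per list, up to 2 genes with the largest called interaction in each direction. Promoters came from RefSeq (GRCm38.p6) and gene annotation from GENCODE vM21, both on the assembly of mm10.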

Additional observations from a re-analysis of the deposited data

Results flagged for a closer look

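The response to IFNb differed between Adar-null and control cells for 30 of the 37 ER genes tested (edgeR quasi-likelihood test of the interaction, adjusted p under 0.05, log2 scale, Adar-null minus control response ± SE). Each of these differences rests on 3 libraries in each of 4 groups. Among all genes tested, 59.3% were called for the interaction.

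The response was higher in Adar-null cells for Herpud1 by 2.42 ± 0.08, Atf6 by 1.5 ± 0.07, Wfs1 by 1.49 ± 0.14, Ern1 by 1.48 ± 0.12, Dnajb9 by 1.30 ± 0.18, Sel1l by 1.23 ± 0.07, Xbp1 by 1.19 ± 0.08 and Hspa5 by 1.18 ± 0.06. Smaller differences in the same direction were found for Ero1l (0.55 ± 0.16), Hyou1 (0.51 ± 0.07), Derl2 (0.46 ± 0.10), Derl1 (0.42 ± 0.07), Sec61a1 (0.29 ± 0.06), Atf6b (0.27 ± 0.09), Canx (0.25 ± 0.05), Os9 (0.25 ± 0.08) and Ostc (0.25 ± 0.11).

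The response was lower in Adar-null cells for Dnajc3 (-0.83 ± 0.07), Sdf2l1 (-0.80 ± 0.15), Pdia6 (-0.56 ± 0.08), Sec61b (-0.55 ± 0.20), Pdia4 (-0.49 ± 0.07), Sec24d (-0.45 ± 0.12), Edem1 (-0.44 ± 0.07), Dnajb11 (-0.41 ± 0.09), Pdia3 (-0.37 ± 0.07), Creld2 (-0.36 ± 0.15), Edem3 (-0.34 ± 0.07), Calr (-0.32 ± 0.06) and Manf (-0.27 ± 0.11).

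Some of the smaller differences rested on single libraries or on the test. With DESeq2 those of Manf (adjusted p = 0.0645), Creld2 (0.0803), Sec61b (0.0526) and Ostc (0.0851) were not called, nor was Ostc with no filter on low counts (0.0586). Ostc (adjusted p = 0.0346) was not called without any 1 of Adar-null IFNb libraries 1, 2 and 3, Adar-null vehicle library 2, control IFNb libraries 2 and 3 and control vehicle library 2 (adjusted p = 0.0565 to 0.0992). Creld2 (0.0283) was not called without any 1 of Adar-null IFNb library 1, Adar-null vehicle libraries 2 and 3, control IFNb library 3 and control vehicle library 2 (0.0507 to 0.113). Manf (0.0214) was not called without any 1 of Adar-null vehicle library 1 and control vehicle libraries 1 and 3 (0.0523 to 0.0621). Os9 was not called without Adar-null IFNb library 1 (0.0536), Atf6b without Adar-null IFNb library 3 (0.0815) and Sec61b without control vehicle library 2 (0.0552). Edem2, not called with all libraries (-0.25 ± 0.13, adjusted p = 0.0758), was called without Adar-null IFNb library 1 (0.0411), control IFNb library 1 (0.0465) or control vehicle library 2 (0.014).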

How the results depend on the processing

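Under a test against a 1.5-fold change, all genes called fell by construction to 17 for Adar-null against control cells under vehicle, 3301 for IFNb in Adar-null cells, 980 for IFNb in control cells, 3306 for Adar-null against control cells under IFNb and 2592 for the interaction. The ER genes called were then 0 under vehicle, 7 higher and 3 lower for IFNb in Adar-null cells, 3 higher and 4 lower for IFNb in control cells, 8 higher and 2 lower in Adar-null against control cells under IFNb, and 8 higher and 1 lower for the interaction. Under vehicle DESeq2 called 322 genes in all, and 2 ER genes lower, against 753 and 7 with edgeR; the cause was not tested. Leaving out 1 library at a time gave 308 to 801 genes under vehicle (308 without control vehicle library 2, 393 and 463 without Adar-null vehicle libraries 1 and 2) with 2 to 7 ER genes lower. It gave 7971 to 8447 genes for IFNb in Adar-null cells, 5533 to 6178 for IFNb in control cells, 8001 to 8466 under IFNb and 6526 to 6702 for the interaction. With library size alone the value of Canx for IFNb in Adar-null cells reversed to -0.085 and was called. Other scalings kept every count of ER genes within 1.5 times.

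The replicate numbers did not pair the libraries: same-numbered libraries had correlations of -0.1 to 0.0618 in their deviations from group means, and no label ties a number to a culture. With the replicate number as a block, 711 genes were called under vehicle, 8338 for IFNb in Adar-null cells, 6075 for IFNb in control cells, 8347 under IFNb and 6816 for the interaction, and the ER genes called for IFNb in control cells were 16 higher and 11 lower, with Sec61a1 (adjusted p = 0.0521) and Sec24d (0.0507) no longer called. Derl3 had too few counts to be tested. Pdia5 and Ero1lb, also low, were called in no comparison, with standard errors of 0.17 to 0.24 and 0.22 to 0.32 on the log2 scale.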
